A study of Mus musculus with 32 samples.

Results

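The sites described here are stretches of open chromatin that were wide in liver endothelial cells and in Kupffer cells alike. Each is a pair of overlapping ATAC-seq peaks, 1 from the endothelial list and 1 from the Kupffer list, on chromosomes 1 to 19. The pairs were chosen by measured values, namely an overlap of at least 1 bp and a width above 300 bp in both peaks. The rule gave 1266 wide pairs out of 53435 overlapping pairs, or 2.37%. Peaks above 300 bp made up 8.13% of the 89631 endothelial peaks and 5.15% of the 134654 Kupffer peaks on these chromosomes. Since width and overlap made the selection, the values for them are a description and carry no test.

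ATAC-seq uses a transposase that inserts adapters into DNA not wrapped around nucleosomes, so that a peak marks a stretch where regulatory proteins can reach the DNA. Such stretches lie at promoters, where transcription starts, and at enhancers, which act on promoters from a distance. Enhancers tend to differ between cell types, whereas promoters of broadly used genes tend to be open in many. Liver endothelial cells line the sinusoids and take up macromolecules from the blood, and Kupffer cells are the macrophages that reside inside those sinusoids. The cells belong to different lineages within the same organ.

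The series comprises 32 libraries, 16 per cell type, in 8 groups of 4 replicates. For each cell type the groups are WT mice and REV-ERB a/b double knockout mice, at zeitgeber times ZT10 and ZT22, which count hours from lights on. All mice were C57BL/6J males on normal chow, and the knockout concerns both REV-ERB genes, which encode repressors of the circadian clock, in adult hepatocytes. The endothelial and Kupffer cells themselves are therefore not the cells in which the genes were deleted. Neither the labels nor the design text states the animals' age, how the genes were deleted or how the cells were isolated. The peak lists hold chromosome, start and end only, 1 list per cell type, so no value below has a replicate, the depth is unknown, and genotypes and times were not compared. Positions are on mm9, counted from 1. As mm9 sequence and gene models were not used here, no gene, promoter or motif is named, and the cell types were not checked against their marker genes.

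Most wide peaks had no wide partner. Of 7287 wide endothelial peaks, 1259 (17.3%, exact binomial 95% interval 16.4% to 18.2%) belonged to a wide pair, 3680 (50.5%) overlapped only Kupffer peaks of 300 bp or less, and 2348 (32.2%) overlapped none. Of 6929 wide Kupffer peaks, 1262 (18.2%, 17.3% to 19.1%) belonged to a wide pair, 3040 (43.9%) overlapped only endothelial peaks of 300 bp or less, and 2627 (37.9%) overlapped none. The intervals here and below treat peaks as independent and cover counting error only. Because 7 endothelial and 4 Kupffer peaks occur in more than 1 pair, 21 of the 1266 pairs share a peak with another pair. Outside the chromosomes of the rule, the X chromosome held 29 wide pairs among 1030 overlapping pairs (2.82%, 1.89% to 4.02%).

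Within the wide pairs, endothelial peaks had a median width of 356 bp (95% interval of the median 353 to 361 bp) and Kupffer peaks one of 366 bp (362 to 371 bp). The Kupffer peak was the wider one in 691 pairs, the endothelial peak in 568, and 7 pairs had equal widths. The median ratio of Kupffer to endothelial width was 1.02 (1.01 to 1.03). The widths lay within 10 percent of each other in 542 pairs (42.8%), and the wider peak was at least 1.5 times the narrower in 107 (8.45%). Pairs with both peaks above 350 bp numbered 466, above 400 bp 143, above 500 bp 20 and above 600 bp 5. Among the members the widths of the partners were weakly related across pairs (Pearson r = 0.23, Spearman rho = 0.22, n = 1266 pairs from the same 2 lists, cut off at 300 bp by the rule).

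**Figure D1:**
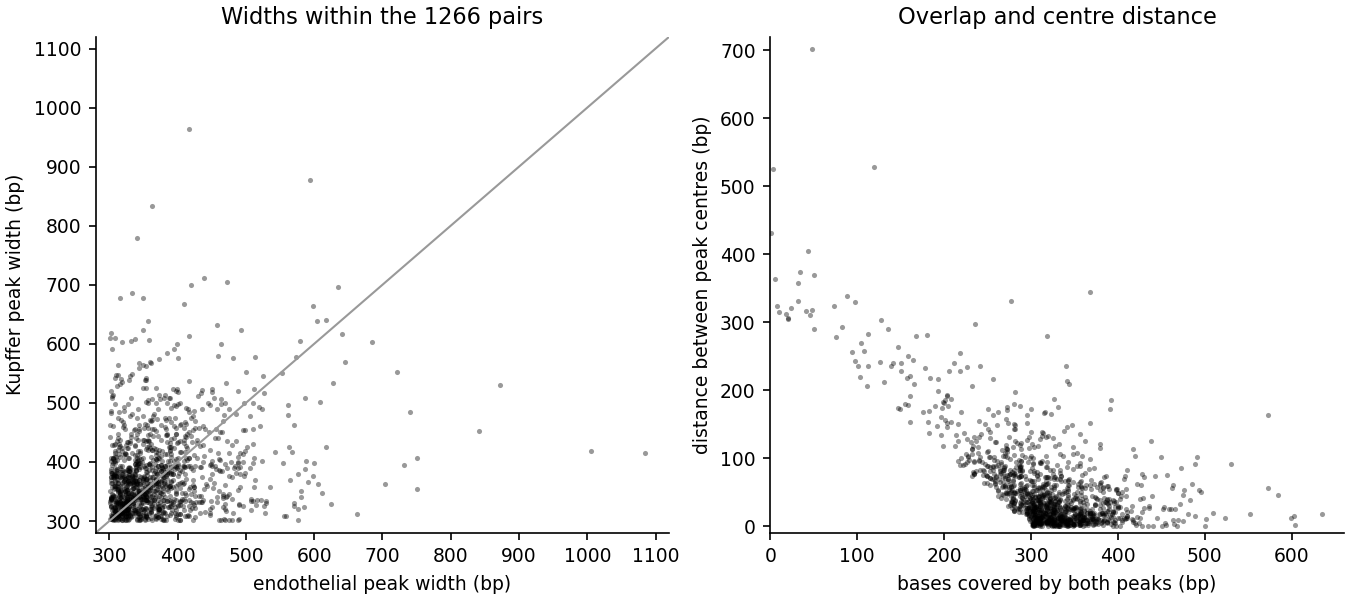
Each point is 1 of the 1266 wide pairs: left, Kupffer against endothelial peak width in bp, with the line of equal width; right, the distance between peak centres against the bases covered by both peaks, in bp. Most pairs lie near the corner of 300 bp on both axes at the left, and 43 pairs at the right overlap by under 150 bp.

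The threshold cuts through a falling distribution. In the last 10 bp up to 300 bp the endothelial list held 1516 peaks and the Kupffer list 1324. In the next 10 bp above it they held 914 and 814, and in the 10 bp after that 889 and 745. In the 10 bp before all of these classes the lists held 2022 endothelial and 1972 Kupffer peaks. In number of peaks, the Kupffer list thus fell by more just before the threshold than at it. The endothelial list fell by more at it. In proportion to the class before, both lists fell most at the threshold. Just inside the threshold, 211 pairs had their narrower peak in the first 10 bp above 300 bp, with a median overlap of 295 bp and a median centre distance of 36 bp. Just outside it, 371 pairs had a wide peak and a partner in the last 10 bp up to 300 bp, with a median overlap of 287 bp and a median centre distance of 39.5 bp.

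Over all overlapping pairs, the share with a wide partner was higher for peaks above 300 bp than for narrower ones. A Kupffer partner above 300 bp was found for 4.62% of the narrowest class of endothelial peaks, 13.9% of those above 250 and up to 300 bp and 24.6% of those above 350 and up to 400 bp. Among endothelial peaks above 500 bp the share was 19.2% (15.6% to 23.3%, 426 pairs). In the other direction, an endothelial partner above 300 bp was found for 7.68% of the narrowest class of Kupffer peaks, 28.6% of those above 350 and up to 400 bp and 33.2% of those above 500 bp (28.0% to 38.8%, 310 pairs). Over all wide peaks the shares were 22.3% of 5667 pairs by endothelial width and 27.3% of 4641 pairs by Kupffer width. As there were more pairs with a wide endothelial peak than with a wide Kupffer peak, these shares differ by construction, and all of them rest on the values used in the selection.

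**Figure D2:**
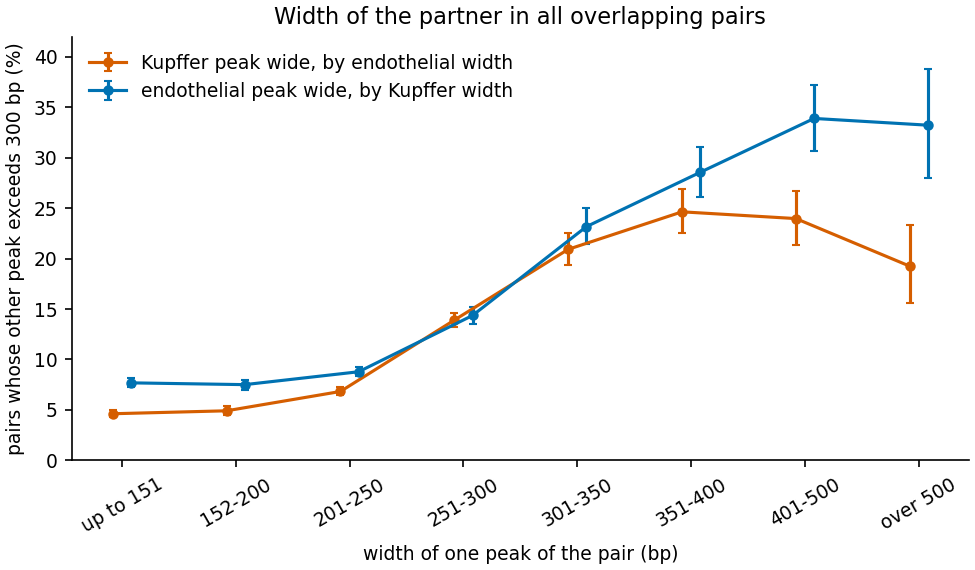
The y axis gives the percent of overlapping pairs whose other peak exceeds 300 bp, and the x axis the width class of the given peak in bp, with exact 95% binomial intervals as bars. The endothelial line is highest at 24.6%, above 350 and up to 400 bp, and the Kupffer line at 33.9%, above 400 and up to 500 bp.

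In most wide pairs the shared bases made up the larger part of the span of both peaks. Their median share was 78.75% (lower quartile 64.16%). The median overlap was 318 bp (quartiles 288 and 353 bp) within a median span of 421 bp, and 858 pairs (67.8%, 65.1% to 70.3%) shared more than 300 bp. Together the pairs shared 399 kb. The overlap took up a median 97.1% of the narrower peak, against 97.1% in the 44393 pairs in which neither peak was wide. Peak centres lay a median 36 bp apart (32.5 to 39.5 bp). The corresponding median was 22 bp where neither peak was wide, 70.5 bp in the 4401 pairs with only the endothelial peak wide and 57 bp in the 3375 with only the Kupffer peak wide. A wide peak leaves more room for its centre to move, so these distances are bounded in part by the classes themselves.

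Both edges of the partners lay within 25 bp of each other in 229 pairs (18.1%), 1 edge in 483 (38.2%) and neither in 554 (43.8%). Where neither peak was wide, both edges lay within 25 bp in 31.1% of pairs. In that class the lower quartile of width equalled the lowest width, for endothelial and for Kupffer peaks alike. Peaks of equal width have both edges aligned wherever their centres are close. The shares were not compared at equal widths, so no conclusion is drawn from the contrast in aligned edges. One peak lay inside the other in 445 wide pairs (35.1%, 32.5% to 37.9%): the endothelial peak was inside in 274 and the Kupffer peak in 171. The other 821 pairs were staggered, and no wide pair had identical intervals, against 187 of the 44393 pairs without a wide peak (0.421%). At 0 of 1266 the upper limit of the exact 95% interval is 0.291%. Identical intervals need equal widths, which 7 wide pairs (0.553%) and 7913 pairs without a wide peak (17.8%) had. Among pairs of equal width the counts were thus 0 of 7 and 187 of 7913, too few wide pairs to compare. The difference follows in part from the width classes.

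For 43 pairs (3.40%, 2.47% to 4.55%) the label of a shared wide site goes against the positions, since the peaks shared under 150 bp. In these pairs the median widths were 368 bp for the endothelial and 360 bp for the Kupffer peak. The Kupffer peak lay at the higher coordinate in 24 and at the lower in 19. The smallest overlap was 1 bp. A further limit is that 1 wide peak can lie across several peaks of the other list. This held for 125 of the 1259 endothelial peaks (9.93%) and 80 of the 1262 Kupffer peaks (6.34%) in wide pairs, and in 1074 pairs (84.8%) neither peak overlapped a second one. Among peaks of 300 bp or less with a partner, 0.977% in the endothelial and 0.789% in the Kupffer list overlapped a second peak, which they have less room to do.

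The 5 pairs with the most bases in common are broad, nearly concentric sites. The first lay on chr5:8797954-8798649, where an endothelial peak of 635 bp sat wholly inside a Kupffer peak of 696 bp. The second, on chr13:115891799-115892436, paired 604 bp in endothelial cells with 638 bp in Kupffer cells, with centres 2 bp apart. The third, on chr17:80294392-80295075, had the order reversed, with a Kupffer peak of 603 bp inside an endothelial peak of 684 bp. The fourth and the fifth lay on the same chromosome as the first, at chr5:23218131-23218794 (599 bp in endothelial and 664 bp in Kupffer cells) and chr5:145118994-145119667 (641 and 617 bp). None of these 10 peaks overlapped a second peak of the other list.

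These 5 sites stood in unlike surroundings. Around the first there was no other endothelial peak and there were 3 other Kupffer peaks within 50 kb of its centre. The second had 19 other endothelial and 16 other Kupffer peaks within that distance. The third had 5 and 8, the fourth 5 and 4, and the fifth 2 and 5. Over all wide pairs the median was 9 endothelial and 15 Kupffer peaks, so that the second site alone exceeded both medians.

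The pairs with the widest single peaks were of another kind. The widest endothelial peak, 1085 bp on chr4:46464278-46465362, shared 48 bp with a Kupffer peak of 415 bp at its end, and it overlapped 3 Kupffer peaks in all. The next, 1005 bp on chr11:43342067-43343071, shared 368 bp with a Kupffer peak of 419 bp and overlapped 2 Kupffer peaks. The third, 872 bp on chr17:31773430-31774301, held a Kupffer peak of 530 bp entirely and also overlapped 2. In these pairs, then, 1 wide endothelial peak ran across 2 or 3 Kupffer peaks.

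The widest Kupffer peak, 963 bp on chr2:155890907-155891869, held an endothelial peak of 417 bp and overlapped 2 endothelial peaks. The second, 878 bp on chr8:113782405-113783282, overlapped an endothelial peak of 594 bp by 573 bp, and also 1 other. The third, 833 bp on chr4:108291905-108292737, shared 318 bp with its only endothelial partner, a peak of 363 bp.

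**Figure D3:**
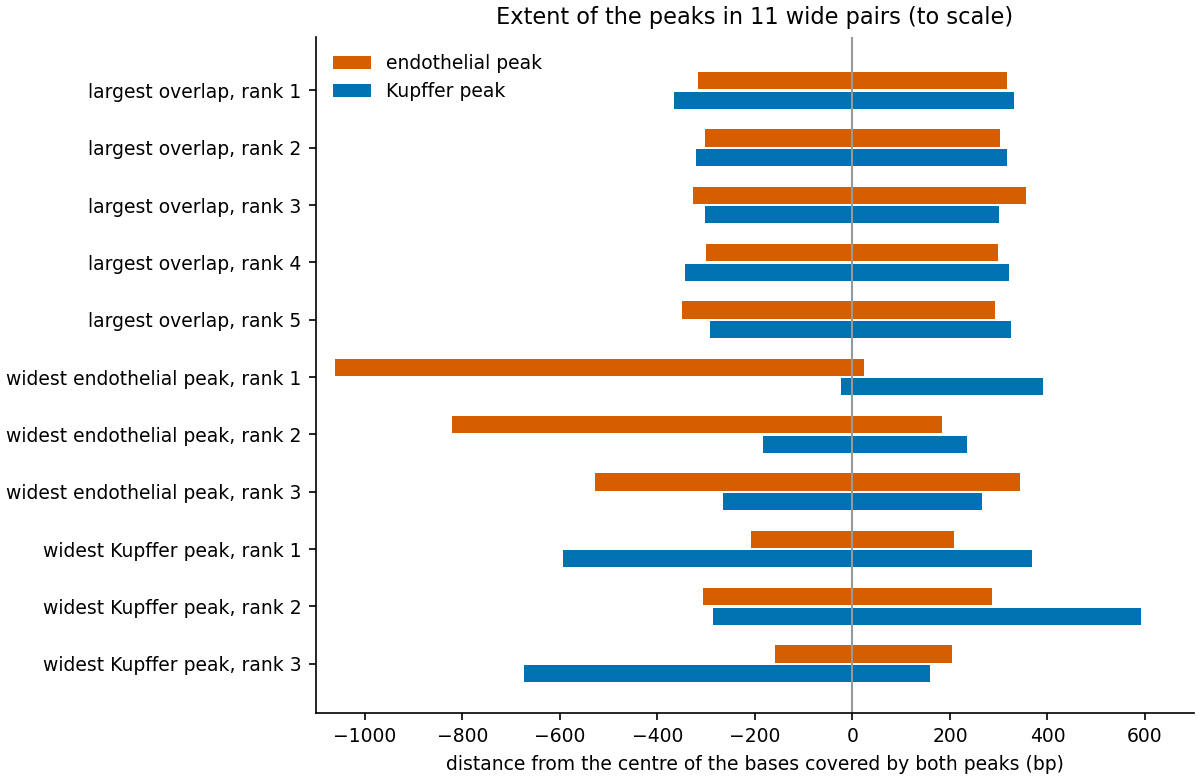
Endothelial (orange) and Kupffer (blue) peaks of the 5 pairs with the largest overlap and of the 3 pairs each with the widest endothelial and the widest Kupffer peak, drawn to scale as distance in bp from the centre of the shared bases. The first 5 pairs are nearly concentric, and the peaks below them extend mostly to 1 side.

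The extremes in the ratio of widths were mostly these same pairs. Kupffer peaks were widest relative to their partner on chromosome 2 (963 against 417 bp, a ratio of 2.31), on chromosome 4 (833 against 363 bp, 2.29) and at chr2:32986213-32986991 (779 against 341 bp, 2.28). Endothelial peaks were widest relative to theirs on chromosome 4 (1085 against 415 bp, 2.61), on chromosome 11 (1005 against 419 bp, 2.40) and at chr14:70999156-70999818 (663 against 312 bp, 2.12).

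Wide pairs had other peaks close by more often than narrow pairs did. The selection used no other peak than those of the pair, but a wide peak can overlap a second peak, which counts here as a neighbour. Within 1 kb of the centre, 634 wide pairs (50.1%, 47.3% to 52.9%) had another endothelial peak, against 37.9% (37.4% to 38.3%) of pairs in which neither peak was wide. Another Kupffer peak lay within 1 kb of 784 (61.9%, 59.2% to 64.6%), against 46.7% (46.3% to 47.2%). Both shares were higher for the wide pairs on 19 of 19 chromosomes, which are not replicates. Peaks of both lists were found within 1 kb of 532 wide pairs (42.02%) and 31.2% of narrow pairs. No other peak of either list lay within 1 kb of 380 wide pairs (30.0%) and within 10 kb of 41 (3.24%, 2.33% to 4.37%), against 46.6% and 7.25% of narrow pairs. The differences shrank from 12.2 to 8.92 percentage points for endothelial and from 15.2 to 9.79 for Kupffer peaks when narrow pairs with a peak of at most the most frequent width were left out, and to 8.72 and 11.4 when neighbours overlapping the pair were left out, both comparisons added after seeing the data.

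The excess was close to the site. In the first 250 bp beyond the edges of the pair, peaks that did not overlap it stood at 0.619 endothelial peaks per kb (exact Poisson 95% interval 0.56 to 0.684) and 0.78 Kupffer peaks per kb (0.713 to 0.852). These densities were 1.512 and 1.515 times those beside narrow pairs. From 250 to 500 bp the ratios were 1.29 and 1.38, and from 500 to 1000 bp 1.03 and 1.15. Between 1 and 2 kb the order turned for endothelial peaks, with 0.102 per kb (0.0898 to 0.115) against 0.122 beside narrow pairs, a ratio of 0.832. For Kupffer peaks the ratio was 0.918, and the interval of 0.1463 to 0.178 per kb included the 0.1759 beside narrow pairs. The endothelial density at that distance was lower for the wide pairs on 13 of 19 chromosomes and the Kupffer density on 14. From 2 to 5 kb the ratios were 0.906 for endothelial and 0.988 for Kupffer peaks, both lower for the wide pairs on 13 of 19 chromosomes. From 5 kb outwards the ratios lay between 1.06 and 1.16 in both lists. The median gap to the nearest other peak was 911 bp in the endothelial list (730 to 1141 bp) and 458 bp in the Kupffer list (404 to 521 bp), against 1814 and 989 bp for narrow pairs.

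**Figure D4:**
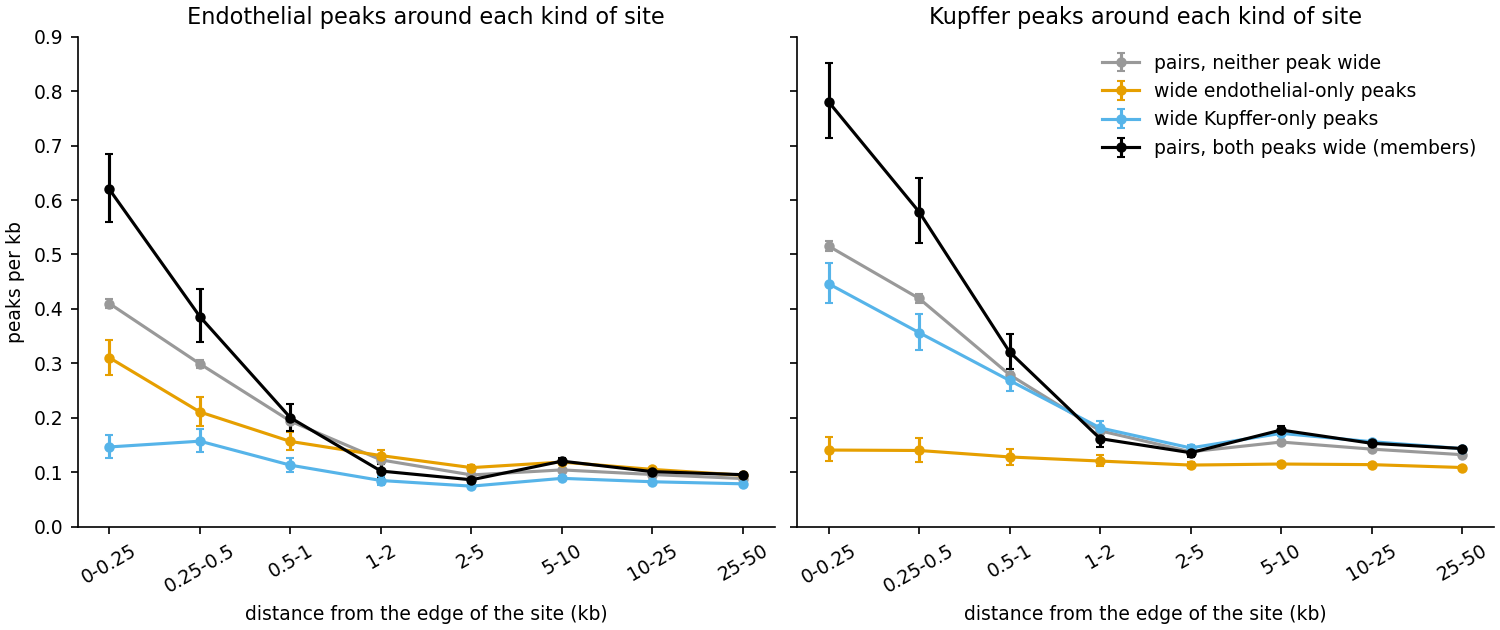
Density of other peaks (peaks per kb, y axis) against distance from the edge of the site (kb, x axis, unequal steps) for endothelial peaks at the left and Kupffer peaks at the right, with exact Poisson 95% intervals as bars. Within 0.5 kb the wide pairs, in black, lie above the other 3 kinds of site drawn (pairs with a single wide peak are not drawn), and beyond 1 kb the lines lie closer together, with the peaks of the other cell type around wide peaks of 1 list alone the lowest.

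Pairs with a single wide peak also had close neighbours more often than narrow pairs. Another endothelial peak lay within 1 kb of 44.0% of pairs with only the endothelial peak wide and 54.0% of those with only the Kupffer peak wide. For another Kupffer peak the shares were 64.3% and 60.8%. The share of 50.1% for wide pairs therefore lay between those of the 2 mixed classes for endothelial peaks, and the same holds for 61.9% and Kupffer peaks. These shares count peaks that overlap the pair, and the mixed classes were not recounted without them. The densities beyond the edges leave such peaks out. In the first 250 bp, endothelial peaks stood at 0.619 per kb beside wide pairs. Pairs with only the endothelial peak wide had 0.577 and those with only the Kupffer peak wide 0.555. Kupffer peaks stood at 0.78, 0.661 and 0.798 per kb in the same order. From 250 to 500 bp, pairs with only the Kupffer peak wide had 0.594 Kupffer and 0.398 endothelial peaks per kb. Wide pairs had 0.578 and 0.386. Within 500 bp the wide pairs were thus the highest of all classes only for endothelial peaks in the first 250 bp. The intervals of wide pairs and of pairs with only the Kupffer peak wide overlapped throughout.

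Wide peaks found in 1 list alone had other peaks within 1 kb less often than wide pairs. Another endothelial peak lay within 1 kb of 29.1% of the 2348 wide endothelial-only peaks, and a Kupffer peak within 1 kb of 16.3%. For the 2627 wide Kupffer-only peaks the shares were 16.8% for endothelial and 40.8% for other Kupffer peaks. All 4 shares were below those of the wide pairs on 19 of 19 chromosomes. By selection these peaks overlap no peak of the other list, so their shares for that list are low in part by construction. From 1 to 2 kb beyond the edges the order turned for peaks of the same list. Endothelial peaks stood at 0.1303 per kb around endothelial-only and 0.1019 around wide pairs. Kupffer peaks stood at 0.1812 around Kupffer-only and 0.1615 around wide pairs. At 50 kb the means differed more for peaks of the other cell type. Wide pairs had a mean of 10.4 endothelial peaks within 50 kb and wide endothelial-only peaks 10.3, but 15.7 and 11.1 Kupffer peaks. Likewise, wide pairs and wide Kupffer-only peaks had 15.7 and 15.4 Kupffer peaks, but 10.4 and 8.11 endothelial peaks.

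The neighbours of wide and narrow pairs were of similar make-up. Of the endothelial peaks within 10 kb of a wide pair, 67.1% overlapped a Kupffer peak, against 65.4% around narrow pairs. Around wide endothelial-only peaks the share was 42.9%, and around wide Kupffer-only peaks 66.5%. Of the Kupffer peaks within 10 kb, 46.3% overlapped an endothelial peak, against 45.8% around narrow pairs. That share was 46.6% around wide endothelial-only peaks and 32.9% around wide Kupffer-only peaks. Pairs with only the endothelial peak wide had 62.35% for endothelial and 49.2% for Kupffer neighbours. For pairs with only the Kupffer peak wide the values were 69.3% and 42.7%. Wide peaks made up 8.93% of the endothelial and 6.14% of the Kupffer neighbours within 10 kb. Around narrow pairs they made up 8.49% and 5.50%, and in the whole lists 8.13% and 5.15%. At least 1 other wide endothelial peak lay within 50 kb of 55.4% of wide pairs and 49.8% of narrow pairs. The share was higher for pairs with only the endothelial peak wide (58.0%) and for wide endothelial-only peaks (56.9%). It was lower for pairs with only the Kupffer peak wide (52.15%) and for wide Kupffer-only peaks (44.6%).

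By chromosome, wide pairs made up between 1.62% and 3.19% of the overlapping pairs. The highest share was on chromosome 19, with 50 of 1565 pairs (2.38% to 4.19%), and the lowest on chromosome 3, with 47 of 2907 (1.19% to 2.14%). These were the only chromosomes among 19 whose intervals missed the common share of 2.37%. On chromosome 19 the lower limit lay next to that share, and the intervals were not adjusted for the number of chromosomes. In number, chromosome 11 held the most with 101, followed by chromosome 5 with 96, and chromosome 18 the fewest with 34. Chromosome 19 also had the largest share of wide peaks in the endothelial list (9.72%) and chromosome 3 the smallest (6.946%), next to chromosome 1 (6.952%). In the Kupffer list the largest share was 6.02% on chromosome 17, with 5.48% on chromosome 19. The smallest was 4.19% on chromosome 16, with 4.45% on chromosome 3.

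**Figure D5:**
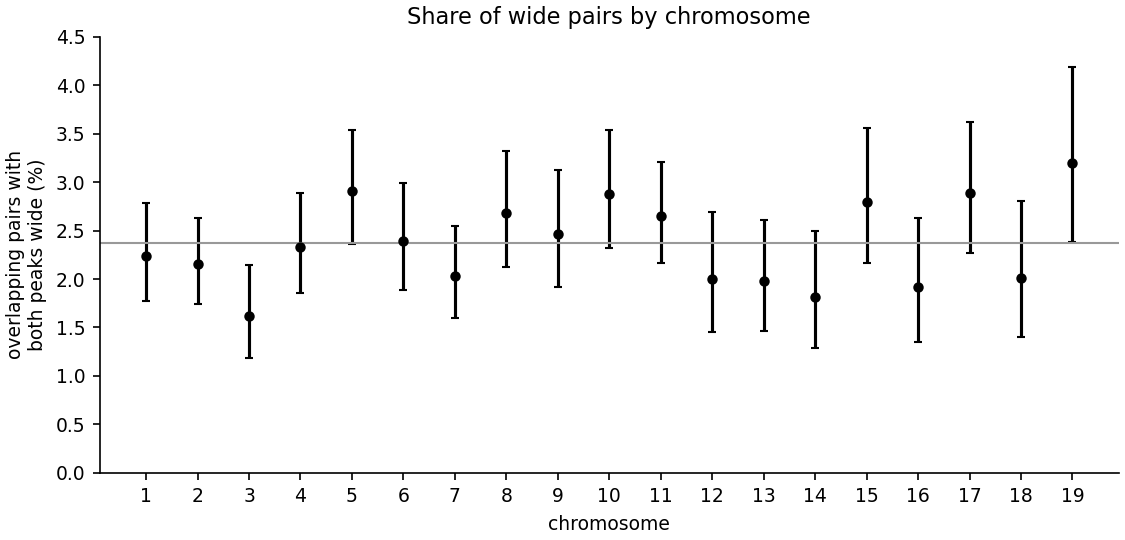
Percent of overlapping pairs in which both peaks exceed 300 bp (y axis) for each of the 19 chromosomes (x axis), with exact 95% binomial intervals as bars and the common share of 2.37% as a line. Chromosome 19 at 3.19% and chromosome 3 at 1.62% lie farthest from the line.

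Most wide pairs had no other wide pair within 10 kb. Only 2.37% of overlapping pairs were wide, and grouping was not computed for other classes, so the spacing was not compared. Consecutive pairs on a chromosome were a median 697 kb apart (quartiles 208 and 2162 kb). With gaps of up to 10 kb joined, the 1266 pairs formed 1227 groups, of which 37 held more than 1 pair, 76 pairs (6.00%) in all. In 10 of these 37 groups the pairs shared a peak, which leaves 27 groups of separate wide pairs. The only groups of 3 lay on chr10:93977458-93978344, where 2 endothelial peaks (413 and 338 bp) and 2 Kupffer peaks (406 and 427 bp) overlapped in a chain over 887 bp, and on chr1:82279810-82288370. In the latter an endothelial peak of 750 bp overlapped Kupffer peaks of 406 and 355 bp, and the other pair, of 357 and 333 bp, lay at the start of the group.

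In windows of 100 kb, 1063 held 1 wide pair, 91 held 2 and 7 held 3, the highest number found. Apart from the windows around the groups just named, on chromosomes 10 and 1, they lay on chromosome 2 (152500001 to 152600000), chromosome 5 (123100001 to 123200000), chromosome 9 (63800001 to 63900000), chromosome 17 (28300001 to 28400000) and chromosome 19 (29100001 to 29200000). Their wide pairs were spread over 12.7 kb on chromosome 2, 39.1 kb on chromosome 5, 63.0 kb on chromosome 9, 80.2 kb on chromosome 17 and 19.7 kb on chromosome 19. The 3 pairs on chromosome 2 held only 2 distinct endothelial peaks. There, 1 endothelial peak of 314 bp overlapped Kupffer peaks of 308 and 425 bp, the latter by 6 bp. In the windows on chromosomes 5, 9, 17 and 19 the pairs shared no peak. The window on chromosome 9 held 27 endothelial peaks, 13 of them endothelial-only, and 28 Kupffer peaks, 14 of them Kupffer-only. The window on chromosome 19 had 6 endothelial peaks, all of them shared, and 10 Kupffer peaks, of which 4 were Kupffer-only. Its wide pairs measured 423 and 386 bp, 323 and 350 bp, and 343 and 350 bp in endothelial and Kupffer cells.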

How the data were processed

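For each cell type the authors deposited 1 list of peak positions, given as a start and an end in bp, without scores or values per library. Bowtie, HOMER and mm9 are named, without versions, by the submitters' processing notes. The treatment of transposase offsets, the peak threshold and the merging of libraries are stated in none of the sources used, and they bear on peak width. The lists use mm9 names for unplaced sequences. Peaks were paired at an overlap of 1 bp with NumPy 2.4.6 and pandas 2.3.3 in Python 3.11.15. Width is the number of bases from start to end, both included. Neighbours within 1, 10 and 50 kb were counted from centre to centre, leaving out the pair's own peaks. Intervals are exact (SciPy 1.17.1). The procedure was tested on simulated data. Without replicates there was no test. Named sites are the pairs with the largest overlaps, widths and width ratios, and the fullest groups and windows. The genotypes and times could not be separated. Members, lists and comparisons were chosen with earlier results of these data known. Densities by distance were added after seeing the data.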

Additional observations from a re-analysis of the deposited data

How the results depend on the processing

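Of 53 alternative values, 28 stayed within the error of the main value (or within 1.5 times a count) and 25 moved further. None reversed, but only the differences between wide and narrow pairs have a sign that could. A width of 250 bp gave 5243 wide pairs, 11.6% of pairs on chromosome 19 and 7.60% on chromosome 3, 1062 pairs in groups and 279 windows with at least 3. A width of 400 bp gave 143 pairs, 0.319% and 0.138%, 2 pairs in groups, 0 such windows, a median centre distance of 43.5 bp, a median gap of 554 bp to the nearest Kupffer peak, and an endothelial excess within 1 kb of 8.51 percentage points over narrow pairs. Requiring 50% of both peaks to overlap gave a centre distance of 32 bp and 3 windows. Groups joined at 25 kb held 127 pairs, and 60 windows of 500 kb held at least 3.

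Without neighbours of at most the most frequent peak width, 39.6% of wide pairs had another endothelial and 52.7% another Kupffer peak within 1 kb. Without neighbours overlapping the pair, the shares were 45.8% and 57.4%, with excesses over narrow pairs of 8.72 and 11.4 percentage points. Against narrow pairs with both peaks above the most frequent width, the excesses were 8.92 and 9.79. The last 2 settings, and leaving out pairs that share a peak, were chosen after seeing the data.

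No paired analysis was possible because libraries have no values of their own here, and leaving out replicates was not run for that reason. Nor was the alternative for sequence and annotation run. Depth is unknown, which limits what a missing peak means.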

Other observations

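Neighbouring wide pairs were unevenly spread over the chromosomes, a count made after the values were seen. Chromosome 8 held 80 of the 1266 wide pairs (6.32%) but 9 of the 37 groups of wide pairs within 10 kb of each other (24.3%). In 8 of these 9 groups the pairs shared no peak. Of the wide pairs on chromosome 8, 18 (22.5%) were in such a group, against 6 of 48 on chromosome 13 (12.5%), the next highest, 8 of 72 on chromosome 7 (11.1%) and 6 of 101 on chromosome 11 (5.94%). The closest separate pairs on chromosome 8 lay at chr8:9976260-9977966, with endothelial peaks of 358 and 329 bp and Kupffer peaks of 396 and 331 bp. The numbers are small, and whether chromosomes differ in this respect was not tested.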
